A study of Arabidopsis thaliana with 12 samples.

Results

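The subject is a group of 227 probe sets whose root transcripts stood 2-fold to under 4-fold higher after 2 h of nitrate in both wild type and the tga1 tga4 double mutant. They were chosen by their measured levels, among 22746 probe sets of an Affymetrix array, from the difference of mean log2 signal between KNO3 and KCl, which had to be at least 1 and below 2 in each genotype, with all 3 KNO3 samples above all 3 KCl samples. In all, 247 probe sets met the range, 14 of them with overlapping groups, and 6 more were left out by name because they belong to families or genes not described here. A gene name was available for a single gene in 105 of the 227, which are 105 different genes, while 2 match several genes and 120 have no entry in the gene table and are given by probe set identifier. The nitrate differences below are those that chose the members, so they are given as a description, with the standard error of the fit and no test. Gaps between samples of opposite salt are likewise a description, since the rule required the salts to be separate in each genotype.

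The 12 samples are whole roots of 15-day-old Arabidopsis thaliana seedlings in 4 groups of 3: wild type (Col 0) with KCl, wild type with KNO3, the TGA1 and TGA4 double mutant (tga1/tga4) with KCl and the same mutant with KNO3, each salt at 5 mM for 2 h from the start of the light period. All groups had grown for 14 days with 0.5 mM ammonium succinate as the source of nitrogen and 3 mM sucrose, at 22 °C in cycles of 16 h light and 8 h dark, so the seedlings had nitrogen as ammonium before either salt was given. The design text calls the 3 samples of a group biological replicates made independently, and the labels give no alleles for the mutant. Because whole roots were used, a higher transcript level in each cell and a larger share of cells that express the gene cannot be told apart. None of the 10 root tissue markers listed for a check of the organ was measured under a gene name. Among 10 shoot photosynthesis markers 1 was, rubisco activase (RCA), at means of 4.31 and 3.84 with KCl and KNO3 in wild type and 4.22 and 3.88 in tga1 tga4, on the log2 scale. Its KNO3 minus KCl difference was -0.47 for wild type and -0.34 for tga1 tga4, and its part in the results was not tested.

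Nitrate is both a nutrient and a signal for roots. Within minutes to hours of its arrival, plants raise transcripts for its uptake and for its reduction to ammonium, for the reductant that these steps consume, and for the carbon skeletons onto which ammonium is loaded to make amino acids. TGA1 and TGA4 are bZIP transcription factors known to regulate part of the root nitrate response. The strongest early nitrate genes are well described. The probe sets here form the next tier, with smaller changes.

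Across the 227 members the median nitrate difference was 1.37 in wild type and 1.40 in tga1 tga4 on the log2 scale, or 2.59-fold and 2.63-fold. The central 50% of members lay between 1.22 and 1.57 in wild type and between 1.21 and 1.61 in the mutant. For 113 members the value was larger in wild type and for 114 in the mutant. The median of all 22746 probe sets was -0.01 in both genotypes. In addition to the members, 150 probe sets with groups that did not overlap differed by 2 or more in both genotypes. The members just inside the lower limit were 248144_at (1.00 in wild type and 1.17 in the mutant), 245148_at (1.22 and 1.01) and AT3G56290 (1.19 and 1.01). Just outside it lay AT1G23140 (1.07 and 0.998), AT1G12630 (1.11 and 0.998) and 248485_at (0.998 and 1.24). At the upper limit AT2G31940 (1.99 and 1.46), CSA1 (1.51 and 1.97) and 252374_at (1.97 and 1.90) lay inside. Probe set 247360_at (2.0001 and 1.79), AT5G26200 (1.41 and 2.0001) and AT2G46620 (2.0007 and 1.72) lay outside.

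**Figure D1:**
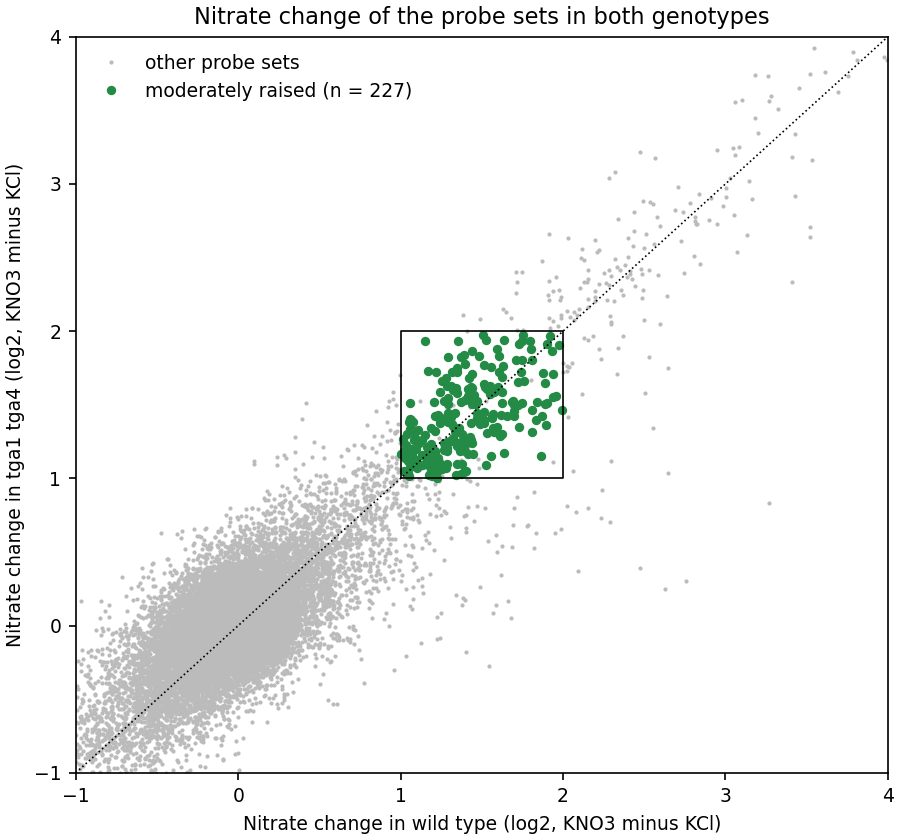
Nitrate change (log2, mean KNO3 minus mean KCl, n = 3 per group) in wild type on the horizontal axis and in tga1 tga4 on the vertical axis, with 1 point per probe set and axes limited to -1 to 4. The 227 members fill the square from 1 to 2 on both axes, which the rule fixed, on both sides of the dotted line of equal change.

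Most members were brighter with KCl than the typical probe set. The median level in KCl samples was 4.15 for members and 2.35 for all probe sets (log2). Of the 227 members, 191 had KCl means at or above the sample medians in both genotypes, 96 lay in the highest 25% of KCl levels and 39 in the highest 10%. For 32 members both KCl means were under the sample medians. Whether such dim signals exceed background is unknown here, which leaves the size of their change uncertain. Their median change, averaged over genotypes, was 1.44, beside 1.40 for the 191 brighter members. By sample, the members' median level ran from 4.10 to 4.22 in wild type with KCl and from 4.09 to 4.31 in the mutant with KCl. With KNO3 it ran from 5.53 to 5.76 in wild type and from 5.59 to 5.77 in the mutant.

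**Figure D2:**
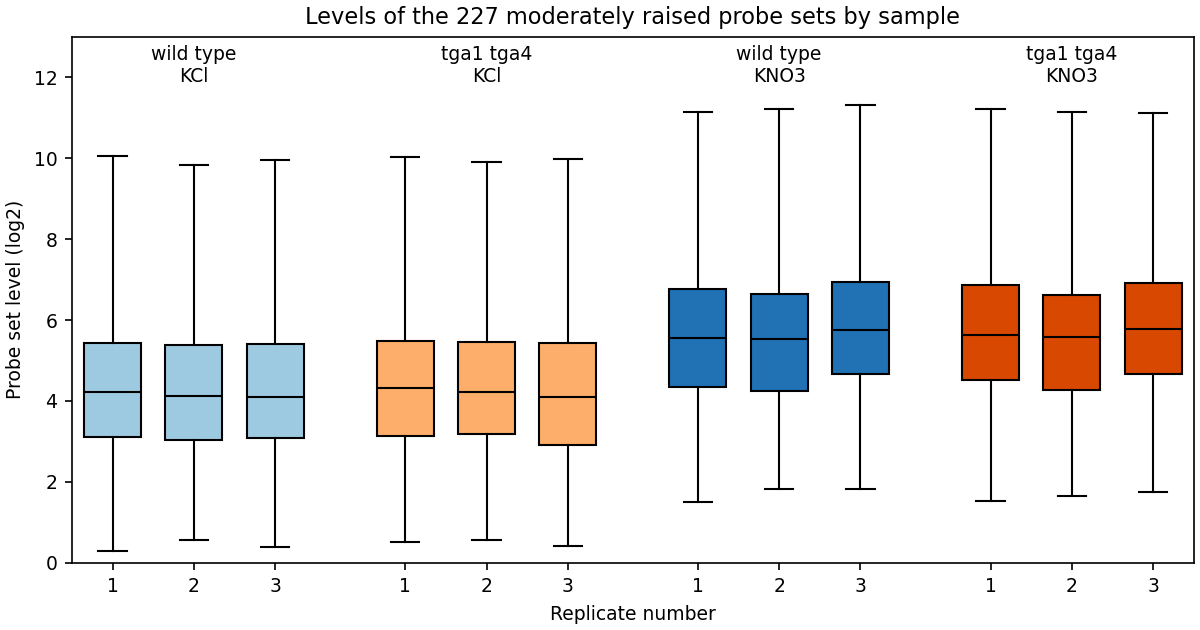
Levels (log2) of the 227 members in each of the 12 samples, with boxes for the central 50%, a line at the median and whiskers to the lowest and highest member. The 6 KCl medians lie between 4.09 and 4.31 and the 6 KNO3 medians between 5.53 and 5.77, and genotypes overlap within each salt.

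Enzymes that carry pyruvate into the tricarboxylic acid cycle were among the members. The mitochondrial pyruvate dehydrogenase complex, which turns pyruvate into acetyl-CoA, had 3 members. AT3G13930 encodes a dihydrolipoyl acetyltransferase (E2) subunit of this complex. With KCl it was measured at 6.37, 6.23 and 6.71 in wild type and 6.39, 6.27 and 6.72 in tga1 tga4, and with KNO3 at 7.89, 7.90 and 8.17 in wild type and 8.03, 7.70 and 8.37 in tga1 tga4 (log2). The highest KCl sample of either genotype lay 0.98 below the lowest KNO3 sample. The difference was 1.55 ± 0.19 in wild type and 1.58 ± 0.19 in tga1 tga4 (log2 ± SE, n = 3 per group). A second E2 gene, AT1G54220, was dimmer, with KCl values of 3.26, 2.80 and 3.04 in wild type and 2.95, 2.63 and 2.59 in tga1 tga4 and KNO3 values of 4.19, 3.92 and 4.61 in wild type and 4.17, 4.02 and 4.54 in tga1 tga4. Its nearest samples of opposite salt lay 0.66 apart, a separation that the rule required within each genotype. The differences were 1.21 ± 0.20 in wild type and 1.52 ± 0.20 in tga1 tga4. MAB1 (AT5G50850), the beta subunit of the E1 component that decarboxylates pyruvate, had small spread within groups. Its KCl levels were 7.57, 7.51 and 7.62 in wild type and 7.48, 7.61 and 7.69 in tga1 tga4, its KNO3 levels 8.51, 8.70 and 8.96 in wild type and 8.69, 8.59 and 8.90 in tga1 tga4, and its difference 1.16 ± 0.13 in wild type and 1.13 ± 0.13 in tga1 tga4. Of 8 genes listed for this complex after these members had been noticed, 1 more was measured under a name. That gene, LTA3 (AT3G52200), also an E2 subunit, had differences of 0.32 and 0.60 and did not meet the rule.

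Further along the cycle, IDH-VI (AT3G09810) encodes a subunit of the NAD-dependent isocitrate dehydrogenase, which makes the carbon skeleton on which ammonium is assimilated. Roots given KCl had levels of 5.45, 5.45 and 5.32 in wild type and 5.49, 5.71 and 5.46 in tga1 tga4, and roots given KNO3 had 7.16, 6.91 and 7.24 in wild type and 6.92, 7.14 and 7.10 in tga1 tga4. The salts were separated by 1.20 between the nearest samples of either genotype, and the difference was 1.70 ± 0.12 in wild type and 1.50 ± 0.12 in tga1 tga4. Its relative IDH-V (AT5G03290), also in the mitochondrion, had differences of 0.65 and 0.998 and fell outside the range, and IDH-III (AT4G35650), at KCl means of 0.72 and 0.57, had 0.13 and 0.17. These were the only genes measured under a name among 5 listed for this enzyme after the member had been noticed. By contrast the cytosolic NADP-dependent enzyme cICDH (AT1G65930), from the list of organic acid supply, had differences of -0.05 and -0.01 at KCl means of 9.69 and 9.68.

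Enzymes of the metabolism of the branched-chain amino acids valine, leucine and isoleucine were encoded by AT3G58610 and AT1G50110. AT3G58610 encodes ketol-acid reductoisomerase, the second enzyme of their shared synthesis in plastids, and was among the brightest named members. Levels were 7.86, 8.36 and 8.41 in wild type and 8.16, 8.14 and 8.39 in tga1 tga4 with KCl and 9.84, 9.66 and 9.995 in wild type and 9.82, 9.61 and 9.80 in tga1 tga4 with KNO3. Both genotypes showed a gap of more than 1 between the nearest samples, and the difference was 1.62 ± 0.16 in wild type and 1.51 ± 0.16 in tga1 tga4. AT1G50110 encodes a branched-chain aminotransferase, an enzyme that adds or removes the amino group, and is not taken here as a plastid enzyme of that synthesis. Its KCl values were 3.87, 4.19 and 4.24 in wild type and 3.23, 3.33 and 3.44 in tga1 tga4, and its KNO3 values 5.28, 5.17 and 5.31 in wild type and 5.02, 5.37 and 5.41 in tga1 tga4. With KCl every mutant sample was under every wild-type sample, and with KNO3 the genotypes overlapped. The difference between salts was 1.15 ± 0.14 in wild type and 1.93 ± 0.14 in tga1 tga4. Among 10 genes listed afterwards for branched-chain amino acids, 3 others had a named probe set. AT2G31810, a regulatory subunit of acetolactate synthase, had 0.97 and 1.50 and missed the lower limit in wild type. AT3G23940, dihydroxyacid dehydratase, had 0.10 and 0.30, and the aminotransferase gene ATBCAT-5 had -0.16 and -0.19.

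Sulfur and redox enzymes followed. SIR (AT5G04590) is the plastid sulfite reductase, which like nitrite reductase takes electrons from ferredoxin and carries a siroheme. Samples with KCl stood at 5.74, 6.09 and 6.16 in wild type and 6.02, 5.47 and 5.84 in tga1 tga4, and those with KNO3 at 7.42, 7.02 and 8.09 in wild type and 7.39, 7.08 and 8.16 in tga1 tga4. In each genotype the KNO3 sample numbered 3 was the highest, by 0.66 in wild type and 0.77 in the mutant over the next sample. The difference was 1.51 ± 0.30 in wild type and 1.77 ± 0.30 in tga1 tga4. From the samples numbered 1 and 2 alone it was 1.31 and 1.49. Other sulfate assimilation genes with a named probe set, of 8 listed afterwards, were the ATP sulfurylase genes APS3 (0.48 and 0.88) and APS4 (0.09 and -0.13). NTRC (AT2G41680), a plastid protein that joins an NADPH-dependent thioredoxin reductase to a thioredoxin, went from 2.62, 2.75 and 2.56 in wild type and 2.94, 2.20 and 2.36 in tga1 tga4 with KCl to 4.04, 3.94 and 3.78 in wild type and 4.14, 4.14 and 4.25 in tga1 tga4 with KNO3. ATB2 (AT1G60710), of the aldo-keto reductase family, was near the lower limit, with differences of 1.02 ± 0.18 in wild type and 1.05 ± 0.18 in tga1 tga4. AT4G02120, a CTP synthase that makes a pyrimidine nucleotide, had 1.59 ± 0.19 in wild type and 1.35 ± 0.19 in tga1 tga4. AT4G37550, of the formamidase family, had 1.90 ± 0.33 in wild type and 1.51 ± 0.33 in tga1 tga4, from KCl means of 1.19 and 1.53 that lay below the sample medians.

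Sugar handling genes were SWEET13, SWEET16 and AT1G62660. SWEET13 (AT5G50800) is a sucrose carrier of the plasma membrane. Its levels were 5.61, 5.85 and 5.93 in wild type and 5.59, 5.76 and 5.78 in tga1 tga4 with KCl and 6.67, 6.70 and 8.04 in wild type and 6.60, 6.12 and 7.50 in tga1 tga4 with KNO3. The KNO3 sample numbered 3 stood 1.35 above the next sample in wild type and 0.90 above it in the mutant. The difference of 1.34 ± 0.37 in wild type and 1.03 ± 0.37 in tga1 tga4 rests in part on these samples, since numbers 1 and 2 alone gave 0.95 and 0.68. SWEET16 (AT3G16690), a sugar carrier of the vacuole membrane, had 4.82, 4.84 and 4.67 in wild type and 4.62, 5.35 and 5.17 in tga1 tga4 with KCl and 6.15, 6.04 and 6.19 in wild type and 6.06, 5.98 and 6.75 in tga1 tga4 with KNO3. Here wild-type samples were tight within each salt and the mutant spread was wider. Its difference was 1.35 ± 0.21 in wild type and 1.22 ± 0.21 in tga1 tga4. Of 17 SWEET genes listed afterwards, 16 were measured under a name. The other 14 had differences between -0.44 and 0.62 in wild type and between -0.30 and 0.42 in the mutant, and 12 of them had KCl means under 2.1 in both genotypes. AT1G62660, a vacuolar invertase that splits sucrose, was read at 6.16, 6.30 and 6.26 in wild type and 6.40, 6.31 and 6.64 in tga1 tga4 with KCl and 7.91, 7.69 and 8.22 in wild type and 7.76, 7.54 and 8.44 in tga1 tga4 with KNO3, a difference of 1.70 ± 0.21 in wild type and 1.46 ± 0.21 in tga1 tga4.

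**Figure D3:**
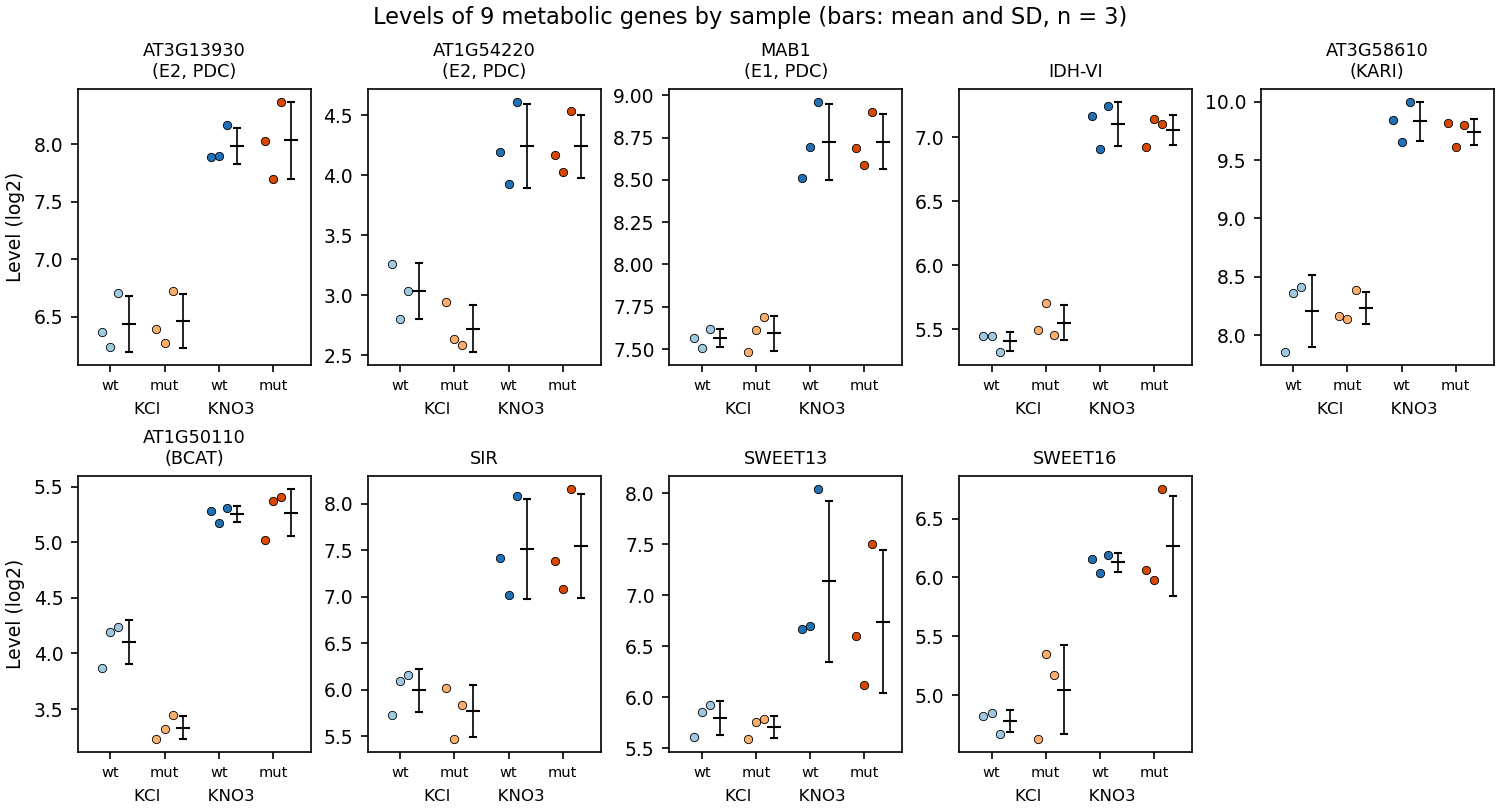
Levels (log2, with a scale of its own in each panel) of 9 metabolic members in every sample, by genotype (wt, wild type; mut, tga1 tga4) and salt, with the mean and SD of 3 samples beside the points. PDC stands for the pyruvate dehydrogenase complex, KARI for ketol-acid reductoisomerase and BCAT for branched-chain aminotransferase. In AT1G50110 the mutant KCl samples, at 3.23 to 3.44, lie below the wild-type KCl samples, at 3.87 to 4.24, and in SIR and SWEET13 the KNO3 samples numbered 3 are the highest.

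Transcription factor genes of several families were members. AT1G21000, of the plant-specific PLATZ zinc-binding family, was the brightest of those named here, at 7.27, 6.99 and 6.81 in wild type and 7.26, 7.30 and 6.74 in tga1 tga4 with KCl and 8.48, 8.77 and 8.95 in wild type and 9.01, 8.83 and 8.87 in tga1 tga4 with KNO3. Its difference was 1.71 ± 0.18 in wild type and 1.80 ± 0.18 in tga1 tga4, and the nearest samples of opposite salt lay 1.18 apart. AT1G68360, a C2H2 zinc finger gene known from trichome development, had 4.05, 3.48 and 3.42 in wild type and 4.11, 3.48 and 2.82 in tga1 tga4 with KCl and 5.09, 4.90 and 6.78 in wild type and 4.70, 4.52 and 6.30 in tga1 tga4 with KNO3. It had the largest spread of the 105 named members (pooled SD 0.80), with the KNO3 sample numbered 3 far above the others in both genotypes. Numbers 1 and 2 alone gave 1.23 and 0.82, in place of 1.94 and 1.71. The basic helix-loop-helix genes bHLH34 (AT3G23210) and AT1G61660, both known from stress responses, had differences of 1.37 ± 0.24 in wild type and 1.52 ± 0.24 in tga1 tga4 and 1.41 ± 0.36 in wild type and 1.26 ± 0.36 in tga1 tga4. AT2G22200, of the AP2/ERF family, stood at only 0.60, 0.58 and 0.46 in wild type and 0.94, 0.71 and 0.41 in tga1 tga4 with KCl, below the sample medians, and at 2.09, 2.68 and 2.14 in wild type and 2.29, 2.38 and 2.39 in tga1 tga4 with KNO3. AT5G08565 (SPT4-1), a subunit of a transcription elongation factor, had 1.19 ± 0.20 in wild type and 1.03 ± 0.20 in tga1 tga4.

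Genes of protein kinases and immune receptors were also present. ATMRK1 (AT3G63260), a protein kinase related to Raf-type kinases, was measured at 5.43, 5.63 and 5.74 in wild type and 5.87, 5.47 and 5.56 in tga1 tga4 with KCl and 7.34, 6.82 and 7.33 in wild type and 7.14, 6.91 and 7.12 in tga1 tga4 with KNO3, with differences of 1.56 ± 0.17 in wild type and 1.42 ± 0.17 in tga1 tga4. AT5G49760, a leucine-rich repeat receptor kinase known as a sensor of hydrogen peroxide, had 1.26 ± 0.16 in wild type and 1.06 ± 0.16 in tga1 tga4. The receptor-like kinase gene NCRK (AT2G28250) had 1.45 ± 0.40 in wild type and 1.57 ± 0.40 in tga1 tga4, with its widest spread in the mutant KCl samples, from 1.63 to 3.18. CSA1 (AT5G17880), a TIR-type nucleotide-binding leucine-rich repeat receptor, lay at 3.76, 3.49 and 3.85 in wild type and 3.31, 3.07 and 3.21 in tga1 tga4 with KCl and 4.95, 5.13 and 5.54 in wild type and 5.31, 4.87 and 5.33 in tga1 tga4 with KNO3. Another gene of that receptor class, AT2G17060, was dim, with KCl values from 1.16 to 1.56 over both genotypes and differences of 1.52 ± 0.27 in wild type and 1.62 ± 0.27 in tga1 tga4. AT5G15070, of the family of kinases that make inositol pyrophosphates, had 1.31 ± 0.27 in wild type and 1.25 ± 0.27 in tga1 tga4 at similarly low KCl levels of 0.89 to 1.31.

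Protein turnover contributed UBC18 and AFR, and 7 further members encode proteins of the RING type. Whether each of these 7 acts as a ubiquitin ligase was not tested. UBC18 (AT5G42990) is a ubiquitin-conjugating enzyme and had KCl values of 6.02, 5.86 and 5.80 in wild type and 5.97, 5.72 and 6.04 in tga1 tga4 and KNO3 values of 7.18, 7.72 and 7.24 in wild type and 7.37, 7.41 and 7.06 in tga1 tga4, with differences of 1.49 ± 0.16 in wild type and 1.37 ± 0.16 in tga1 tga4. AFR (AT2G24540), an F-box protein of far-red light signalling, had 1.29 ± 0.22 in wild type and 1.45 ± 0.22 in tga1 tga4. Of the RING genes, AT2G42350 had the smallest standard error. It was read at 5.79, 5.90 and 5.56 in wild type and 5.77, 5.72 and 5.72 in tga1 tga4 with KCl and 7.51, 7.44 and 7.26 in wild type and 7.14, 7.12 and 7.21 in tga1 tga4 with KNO3, a difference of 1.65 ± 0.11 in wild type and 1.42 ± 0.11 in tga1 tga4. The others were AT1G72200 (1.81 and 1.47 in wild type and mutant), AT5G20885 (1.62 and 1.30) and AT1G71980 (1.53 and 1.61). AT4G40070, AT1G72220 and AT1G68070 had 1.39 and 1.19, 1.38 and 1.30 and 1.21 and 1.32. These genes were grouped after their values had been seen, and how common the class is among all genes was not tested.

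Membrane transporters other than the sugar carriers included AT1G71870, of the MATE efflux family, and AT4G34950 and AT2G16660, of the major facilitator superfamily. AT1G71870 had 1.36 ± 0.33 in wild type and 1.34 ± 0.33 in tga1 tga4, AT4G34950 1.48 ± 0.27 in wild type and 1.83 ± 0.27 in tga1 tga4 and AT2G16660 1.40 ± 0.20 in wild type and 1.05 ± 0.20 in tga1 tga4. From the samples numbered 1 and 2 alone AT1G71870 had 1.38 and 0.86, the latter under the lower limit of the rule. The genotype differences of these genes were among the largest of the named members and are given below.

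Among named members with no role stated here, those of the 12 largest differences belonged to AT2G24550 (1.81 and 1.80 in wild type and mutant), AT5G20880 (1.88 and 1.71), AT3G03040 (1.59 and 1.88), AT2G31940 (1.99 and 1.46), AT4G39670 (1.84 and 1.52) and AT5G59080 (1.44 and 1.86). Of the 6 brightest named members, those not described above were AT5G65660, AT1G70780 and AT5G12470, with means over all samples of 8.68, 8.41 and 8.23. AT1G12080, AT4G02850 and AT2G39710 varied most within groups besides AT1G68360, with pooled SDs of 0.70, 0.72 and 0.72. In AT1G12080 the KCl samples numbered 1 were low, at 3.01 and 3.19, while numbers 2 and 3 lay between 4.05 and 5.02. The samples numbered 1 and 2 alone gave 1.08 and 0.48 for AT4G02850 and 1.13 and 0.60 for AT2G39710, in place of 1.41 and 1.16 and of 1.47 and 1.52. The dimmest named members were AT2G22200, AT5G59080, AT5G15070 and AT2G17060, with means of 1.47, 1.56, 1.72 and 2.11. The brightest members of all had no gene name. Probe set 252022_at averaged 10.58 over all samples and differed by 1.28 and 1.18, 263096_at averaged 9.96 and differed by 1.47 and 1.45, and 253609_at averaged 9.80 and differed by 1.24 and 1.11 in wild type and mutant.

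Most genes of the lists drawn up for nitrate assimilation, signalling and neighbouring processes had no named probe set. Of 189 genes in 18 lists, 27 were measured under a name, and SWEET16 was the only member among them. Its own nitrate call follows from the values that chose it and supports nothing, though the counts of higher genes below include it. Over the whole table, limma with Benjamini-Hochberg adjustment called 7 of the 27 higher, SWEET16 included, and 1 lower in wild type, beside 3.32% of all probe sets higher and 2.19% lower. In the mutant 7, again with SWEET16, were higher and 1 lower, beside 3.17% and 1.95%. Of the higher genes, 5 differed by more than 2 in both genotypes and lie above the range. They were 3 HHO-type transcription factor genes (AT3G25790, AT1G68670 and AT1G25550) and the 6-phosphogluconate dehydrogenase genes AT5G41670 and AT1G64190, with values from 2.69 to 4.30. The remaining higher gene lay within the range in both genotypes and is no member because it was left out by name. The lists were written from general knowledge and with earlier results of these data known. Their counts are therefore a description and no test of the lists. For none of the 11 cytokinin, auxin, clock, ribosome biogenesis, wounding or low-oxygen genes measured under a name did the difference reach 1 in either genotype. The clock, wounding and low-oxygen lists had 1 measured gene each. Both measured cytokinin genes were dim, with KCl means in wild type and mutant of 0.73 and 0.70 (ARR15) and 0.44 and 0.60 (RR16). These values therefore say little about the processes as a whole.

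The genotypes were then compared directly. The mean of both salts in the mutant minus that in wild type was not used to choose the members, and it tests whether their overall level differed. By limma with adjustment over all 22746 probe sets, 0 of 227 members passed an adjusted p of 0.05, and 0.022% of all probe sets did. At an unadjusted p under 0.05 there were 10 members, which is 4.41% of members beside 3.45% of all probe sets. Of these, 6 were higher in the mutant (beside 1.38% of all) and 4 lower (beside 2.07%). With the combination of salt and replicate number as a fixed block, 34 members (15%) passed unadjusted, beside 7.56% of all probe sets, and with a random block 24 (10.6%), beside 6.53%. Adjusted, 0 members passed in either, beside 10 and 8 of all 22746 probe sets. The median difference over members was 0.04, with the central 50% between -0.08 and 0.13 and a range from -0.54 to 0.59. Over all probe sets the median was -0.00485. The members' median was -0.0234 without tga1 tga4 KNO3 replicate 3 and 0.0679 without tga1 tga4 KNO3 replicate 2, so its sign rested on 1 sample. In the fit without a block, the 95% confidence interval lay within -1 and 1 for 220 members and within -0.5 and 0.5 for 120. For the other members that fit, with 3 samples per group, did not resolve a genotype difference of that size. It leaves out the pairing of same-numbered samples within a salt, and intervals with a block are not given here.

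The differences within a salt are not independent of the rule, since each combines the average with the difference of nitrate changes, which the rule bounds, so their counts are a description. Under KCl alone 0 members passed (limma, adjusted over all probe sets), with 0.0176% of all probe sets called, and 12 passed unadjusted, which is 5.29% beside 4.7%. The mutant was higher in 6 of them (beside 1.77% of all probe sets) and lower in 6 (beside 2.93%). The fixed block gave 30 members unadjusted (13.2%, beside 9.33%) and the random block 20 (8.81%, beside 8.23%). Under KNO3 0 passed, with 0.0132% of all called, and 5 passed unadjusted, which is 2.2% beside 1.75%. All 5 were higher in the mutant, where 0.849% of all probe sets were. Unadjusted, there were 14 (6.17%, beside 4.8%) with the fixed block and 7 (3.08%, beside 3.78%) with the random block. Groups did not overlap in 18 members under KCl (7.93%, beside 9.14% of all probe sets), 11 with the mutant higher (beside 3.81%) and 7 with it lower (beside 5.34%). Under KNO3 there were 15 (6.61%, beside 6.78%), 9 higher (beside 3.21%) and 6 lower (beside 3.57%). In 0 members did they separate in the same direction under both salts, as they did in 0.101% of all probe sets with the mutant higher and 0.242% with the mutant lower. The difference of nitrate changes between genotypes itself can only lie between -1 and 1 here, and its counts are likewise no independent test. By limma 0 members passed for it, beside 0.0044% of all probe sets, and 5 passed unadjusted (2.2%, beside 3%). Each of the 5 had the larger value in the mutant, beside 1.74% of all probe sets that way. With the fixed block 14 passed unadjusted (6.17%, beside 6.48%), and with the random block 12 (5.29%, beside 5.8%).

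Without a block, the member with the smallest unadjusted limma p for the average genotype difference was AT1G50110, the branched-chain aminotransferase gene. With the fixed block, 265067_at, AT2G16660 and 248756_at had smaller unadjusted limma p, of 0.000351, 0.000425 and 0.000593 beside 0.00171 for AT1G50110, and the adjusted p of these members were 0.195, 0.204, 0.221 and 0.289. In the fit without a block, AT1G50110 averaged over salts was lower by 0.38 in the mutant on the log2 scale (95% interval -0.59 to -0.16, limma unadjusted p = 0.0024, adjusted p = 1). With KCl the mutant minus wild-type difference was -0.77 (adjusted p = 0.335), and with KNO3 it was 0.01. The adjusted p with KCl was 0.0951 with the fixed block and 0.0818 with the random block, so the difference did not pass in any of these fits. Its nitrate change was larger in the mutant by 0.78, a value that the rule bounds. The gene was singled out after its values had been seen. For AT1G71870, AT4G34950 and AT2G16660 the average differences without a block were -0.54 (95% interval -1.06 to -0.02), -0.51 (-0.94 to -0.09) and 0.43 (0.13 to 0.74), with adjusted p of 1 in each (limma). AT2G24550 had 0.52, and probe sets 265067_at and 257504_at, without a gene name, had 0.59 and 0.46. In AT1G71870 the mutant KCl values of 4.08, 3.36 and 2.41 spread widely, and numbers 1 and 2 alone gave -0.26 for its average difference.

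**Figure D4:**
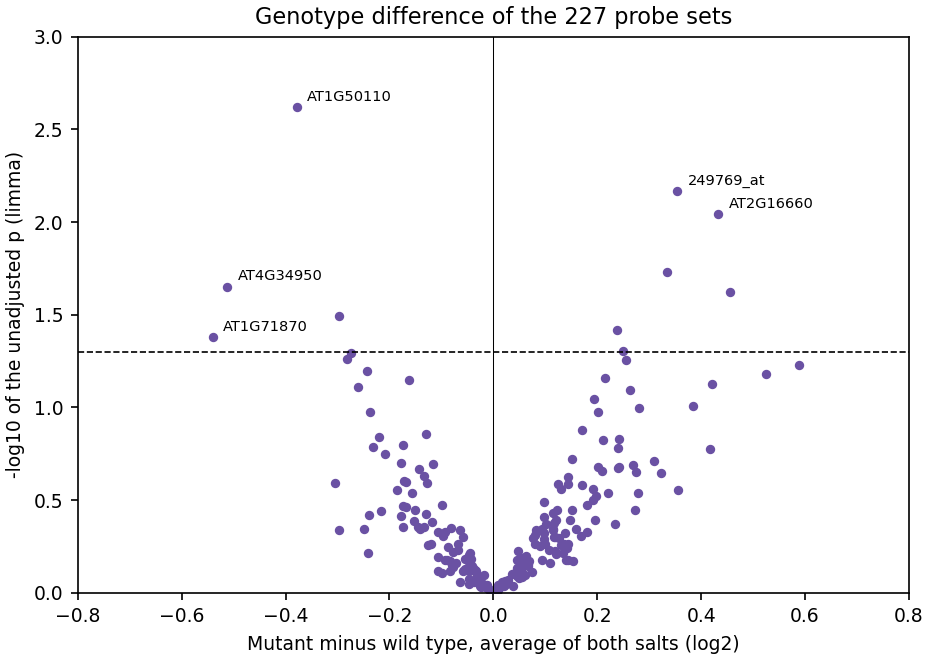
Mutant minus wild type averaged over both salts (log2, horizontal axis) against -log10 of the unadjusted limma p (vertical axis) for the 227 members, with a dashed line at the unadjusted threshold of 0.05 from the limma fit. Above the line are 10 points (4.41%, beside 3.45% of all probe sets), 6 at higher and 4 at lower levels in the mutant. After adjustment over all probe sets 0 passed, beside 0.022% of all probe sets.

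The samples of a group did not contribute equally to the nitrate difference. Taking KNO3 minus KCl between samples of the same number, the members' median was 1.28, 1.32 and 1.58 in wild type for numbers 1, 2 and 3, and 1.34, 1.20 and 1.65 in the mutant. The KNO3 sample numbered 3 was the highest of its group in both genotypes for 103 of 227 members (45.4%), beside 22.3% of all probe sets. The KNO3 sample numbered 2 was the lowest in both for 73 (32.2%, beside 18.7%). The rule used means that include these samples, so all probe sets are no like background for these shares or the deviations given next. Members deviated upward from their group mean by a median of 0.13 in wild type and 0.16 in the mutant in the KNO3 samples numbered 3, while the median of all probe sets there was 0.01 in each. In the 150 probe sets that differed by 2 or more, the medians were 2.81, 2.73 and 2.88 in wild type and 2.76, 2.63 and 3.05 in the mutant. Without the samples numbered 3, 169 members kept a difference of at least 1 in both genotypes and 58 fell under 1 in at least 1 of them. The members' medians were then 1.29 and 1.27. The limit was set on means of all 3 samples, so leaving out other samples also loses members. With 1 sample left out, the rule applied anew kept 191 to 220 of the 227, the fewest without tga1 tga4 KNO3 replicate 3. Matching counts without all samples numbered 1 or 2 were not made. What set the samples numbered 3 apart was not tested.

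**Figure D5:**
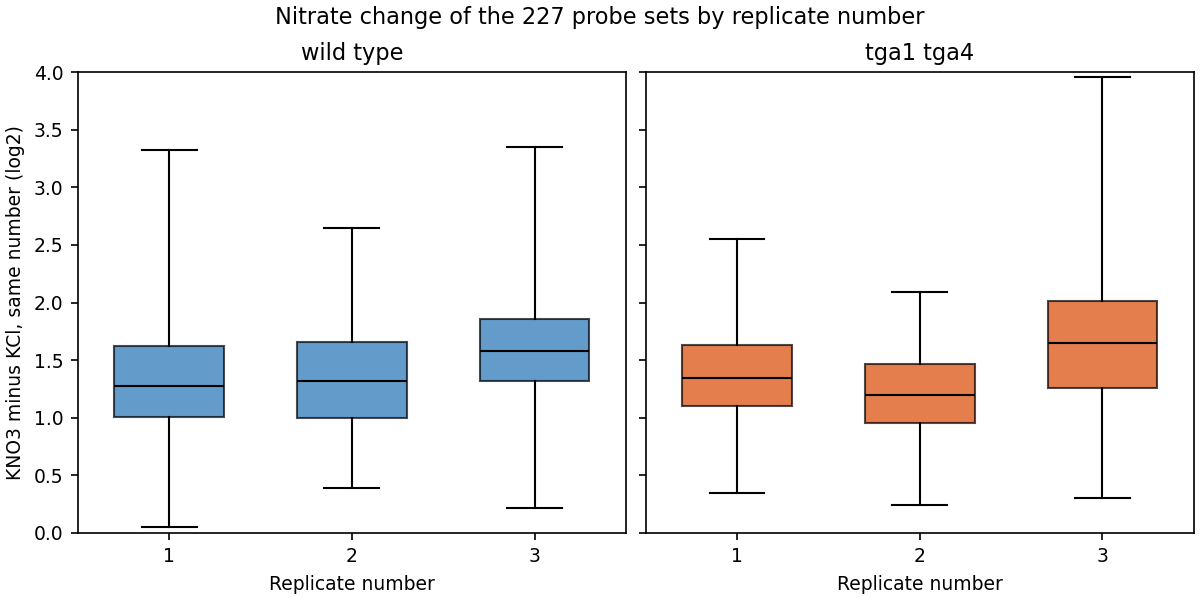
Difference KNO3 minus KCl between samples of the same replicate number (log2) for the 227 members in wild type and tga1 tga4, with boxes for the central 50%, a line at the median and whiskers to the extremes. The labels do not say that a number pairs KCl with KNO3 samples, and the medians for number 3, 1.58 and 1.65, are the highest in each genotype.

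The 105 named genes lay on all 5 chromosomes, with 24, 17, 20, 15 and 29 genes on chromosomes 1 to 5. Among them 3 pairs were next to each other in the order of protein-coding genes. AT1G59960, of the aldo-keto reductase family, and AT1G59970, of the matrix metalloprotease family, had 1.52 and 1.64 and 1.62 and 1.43 in wild type and mutant. AFR and its neighbour AT2G24550 had 1.29 and 1.45 and 1.81 and 1.80, and AT5G14690 and AT5G14700 had 1.58 and 1.59 and 1.41 and 1.56. A neighbour measured under a name existed for 82 member genes. How often neighbours share a nitrate response among all genes was not tested.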

How the data were processed

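Transcripts of 12 whole-root samples were measured on Affymetrix arrays. The deposited values are on a log2 scale, 1 per probe set, per the file's values. How the authors corrected, normalised and summarised them is not given in the sources used here. Column medians ran from 2.21 to 2.41, and spiked control probe sets rose by 0.927 per log2 unit of nominal concentration. The number of arrays limits the precision, and no depth applies. The 64 control probe sets were left out. Gene names came from the platform's annotation, updated through RefSeq (assembly TAIR10.1), for 13513 of 22746 probe sets with 1 gene, while 503 have several and 8730 none.

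A linear model over all 4 groups was fitted with limma 3.58.1 in R 4.3.3 to all 22746 probe sets, with Benjamini-Hochberg adjustment and a threshold of 0.05. It was also run on simulated data with independent samples. That setting lacks the correlation between same-numbered samples given below, so no conclusion is drawn from it. Contrasts were mutant minus wild type averaged over salts, within each salt, and the difference of nitrate changes. Replicates are biological per the series' design text. The nitrate contrasts chose the members, so they support nothing about them. Alternatives were another prior, normalization, filter, array weights, replicate block and leaving out samples.

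Genes are named from fixed gene lists, the 12 largest nitrate changes, the 6 highest and 4 lowest levels, the 6 largest genotype differences, the 3 probe sets on each side of a limit and the 4 largest spreads. Others were chosen after their values were seen, among them all those grouped by metabolic or regulatory role, since descriptive words existed for only 8 of 105 named members and the planned role classes were void. The members and lists were chosen with earlier results of these data known. Deviations from group means were compared between same-numbered samples, over probe sets at or above the median level only. Between genotypes within each salt they correlated at 0.276 to 0.726, so the numbers were taken to pair samples within a salt. The main fit has no block, so its standard errors, intervals and calls leave this pairing out. It enters only in the settings with a block. Between salts the deviations correlated at -0.136 to 0.229 and were not paired. Promoter motifs were not analysed here.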

Additional observations from a re-analysis of the deposited data

How the results depend on the processing

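For the genotype average, each salt and the difference of nitrate changes, 22 alternative settings each were run. In any of them 0 members passed an adjusted p of 0.05 (limma). In the main setting only 5, 4, 3 and 1 of all 22746 probe sets passed. With so few calls in the whole table, 0 among 227 members was likely in advance. At an unadjusted limma p under 0.05 the main setting had 10, 12, 5 and 5 members. These were 4.41%, 5.29%, 2.2% and 2.2% of members, beside 3.45%, 4.7%, 1.75% and 3% of all probe sets. The replicate block by salt and number left the adjusted calls among members at 0. Over all probe sets, the fixed block gave 10, 18, 4 and 2 adjusted calls and the random block 8, 6, 4 and 2. With the fixed replicate block by salt and number, the smallest adjusted p of any member was 0.195 for the average, 0.0951 for KCl, 0.696 for KNO3 and 0.559 for the difference of changes, and 0 members passed. The members' median genotype difference was 0.0378 in the main setting and 0.0581 with each array shifted to the same median. With 1 sample left out it ran from -0.0234, without tga1 tga4 KNO3 replicate 3, to 0.0679, and -0.0234 was the only value of opposite sign. The cause was not tested. Applied anew, the rule found 200 to 237 members with 1 sample left out and 209 to 241 under 5 other settings, 1 of which, the samples numbered 1 and 2 alone, was added after seeing the data. Of its 209 members, 165 were shared with the 227. The median nitrate change over the 227 ran from 1.30 to 1.42 in wild type and from 1.30 to 1.46 in the mutant with 1 sample left out. The 6 members with the largest average genotype differences, with or without a gene name, kept their direction in all 22 settings. They were chosen by the size of this same difference and the settings share samples, so the kept direction is no independent support. Their smallest adjusted p in any setting was 0.195 (limma). In dim probe sets the distance to background is unknown and limits the size of a change.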
